A study of Mus musculus with 15 samples.

Results

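10 mouse genes of the SOX family were followed across all 5 conditions of the study: Sox9, Sox4, Sox2, Sox21, Sox5, Sox6, Sox12, Sox13, Sox17 and Sox18. They were taken by gene symbol from the 78298 genes listed in every library. Poly-A RNA was sequenced from small intestinal organoids of adult female C57BL/6J mice, in 15 libraries, 3 for each condition. Organoids are epithelial cultures that grow in a gel as buds around a lumen and hold stem cells together with their differentiated progeny. Each condition was a lentivirally transduced line kept under antibiotic selection, with the transgene driven by the weak L30 promoter. The control, Halo-NLS, carried a HaloTag (a self-labelling protein tag) with a V5 tag and a nuclear localization signal, and no SOX9. SOX9-mEGFP_budding and SOX9-Halo_budding carried SOX9 fused to a green fluorescent protein or to HaloTag and grew as budding organoids. SOX9-mEGFP_spheroid and SOX9-Halo_spheroid were the same fusion lines after longer culture, when the organoids had become spheres. The paper describes a second transduction of such lines with histone H2B, fused to mScarletI for SOX9-mEGFP and to mEGFP for SOX9-Halo. It does not state which sequenced libraries carried this H2B transgene. The paper gives a wild-type background for the SOX9-Halo and SOX9-mEGFP lines that were transduced again. For the sequenced Halo-NLS line it states no background, and part of its imaging used organoids of LGR5 reporter mice. Whether the control and the SOX9 lines differed in genotype was not tested. Morphology and time in culture changed together, possibly with the H2B transgene, and cannot be told apart. The 3 libraries of a condition came from the same line, so the p-values measure the spread within a line.

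SOX proteins are transcription factors that share a DNA-binding domain, the HMG box, which binds the minor groove and bends DNA. They are grouped by sequence, and members of a group often act at the same sites, with SOXC proteins known as activators, SOXD proteins as factors without an activation domain of their own that help or oppose other SOX proteins, and SOXB members as factors of pluripotent and neural progenitor cells. In the intestinal crypt SOX9 is known as a target of Wnt signalling that is made by stem cells, progenitors and Paneth cells, and SOX4 as a factor of stem cells and early secretory progenitors.

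Between 28062722 and 40559766 reads per library were counted on genes (median 33491297). Levels are given as normalized counts, that is reads on a gene scaled to a common library size, or as TPM, which also divides by the gene's exon length. Of the 10 genes, 7 passed the filter on low counts and were tested. Sox2, Sox17 and Sox18 did not. Of the 7, 6 had a mean of at least 100 normalized counts over the 15 libraries: Sox9, Sox4, Sox21, Sox6, Sox12 and Sox13. In mean TPM over all libraries Sox9 (262) was followed by Sox4 (59.0), Sox21 (27.96), Sox13 (7.17), Sox12 (5.39) and Sox6 (3.77). Of the other 10 mouse SOX genes none passed the filter, and the highest count of any of them in any library was 25 (Sox11). The epithelial markers all passed the filter. The lowest mean level of Epcam was 15463 normalized counts, in SOX9-Halo_spheroid, where Epcam, Cdx2 and Vil1 were lower than in Halo-NLS.

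A gene was called where edgeR's quasi-likelihood test gave a Benjamini-Hochberg adjusted p of at most 0.01 over all 17560 genes tested, the fold change was at least 2 and the mean was at least 10 normalized counts. Against Halo-NLS, SOX9-Halo_budding had 3 of the 7 SOX genes tested called higher (Sox9, Sox4 and Sox6) and none lower. Of all genes tested 2.49% were called higher there and 1.26% lower (3.75% in all). With only the 6 libraries compared in the fit none of these 3 was called (adjusted p = 0.058 for Sox9, 0.033 for Sox4 and 0.073 for Sox6), at nearly the same fold changes, and 5 genes were called in all, each of them higher, so that no lower call of this comparison was kept. Without SOX9-Halo_budding replicate 3 none of the 3 was called either. SOX9-mEGFP_budding had 2 called higher (Sox9 and Sox6), where 1.99% of genes were higher and 0.763% lower (2.76% in all). With only the compared libraries Sox6 was not called there (adjusted p = 0.067). In the spheroids far more of the transcriptome differed from Halo-NLS. SOX9-Halo_spheroid had 2 called higher (Sox9 and Sox21), where 13.6% of genes were, and 1 lower (Sox12), where 15.3% were (28.9% in all). SOX9-mEGFP_spheroid had 3 called higher (Sox9, Sox21 and Sox6), where 15.3% of genes were higher and 12.1% lower (27.5% in all). The same 3 Halo-NLS libraries enter all 4 comparisons with the control. Sox9 counts hold transgene reads in every SOX9 condition, so a rise of Sox9 over Halo-NLS was built into the design. Its calls are in the tallies above but are no result about the other members.

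Morphology and tag were compared next. From budding to spheroid in the SOX9-Halo line, Sox21 was called higher, where 10.5% of genes were, and Sox4 and Sox12 lower, where 14.7% were (25.3% in all). In the SOX9-mEGFP line none of the members was called by edgeR, where 8.55% of genes were higher and 7.88% lower (16.4% in all). There 5 of the 7 members tested were at an unadjusted p under 0.05, where 37% of all genes were, and 1 was called by DESeq2. Between both budding lines none was called by edgeR or by DESeq2, where 0.290% of genes were higher and 0.165% lower in SOX9-Halo_budding (0.456% in all), and 1, Sox21, was at an unadjusted p under 0.05, where 8.37% of all genes were. Between both spheroids Sox12 and Sox6 were called lower in SOX9-Halo_spheroid, where 9.58% of genes were lower and 3.59% higher (13.2% in all). The difference between the lines in their change to spheroids was called for 1 member, Sox12. It had the more negative change in SOX9-Halo, as had 5.58% of genes, where 1.81% had the more positive one (7.39% in all). For this difference 5 members (Sox4, Sox21, Sox6, Sox12 and Sox13) were at an unadjusted p under 0.05, where 23.9% of all genes were.

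Counted by separation alone, the 3 libraries of SOX9-Halo_budding did not overlap those of Halo-NLS for 3 of the 7 members tested (29.7% of all genes), and those of SOX9-mEGFP_budding for 4 (32.5%). The spheroids were separate from Halo-NLS for 5 (SOX9-Halo, 54.8% of genes) and 4 (SOX9-mEGFP, 56.5%). Sox9, with its transgene reads, is among the members counted in each comparison with Halo-NLS. Spheroids and budding organoids were separate for 5 in the SOX9-Halo line (52.8%) and 5 in the SOX9-mEGFP line (46% of genes). SOX9-Halo and SOX9-mEGFP were separate for 1 in budding organoids (12% of genes) and for 3 in spheroids (48.6%).

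**Figure D1:**
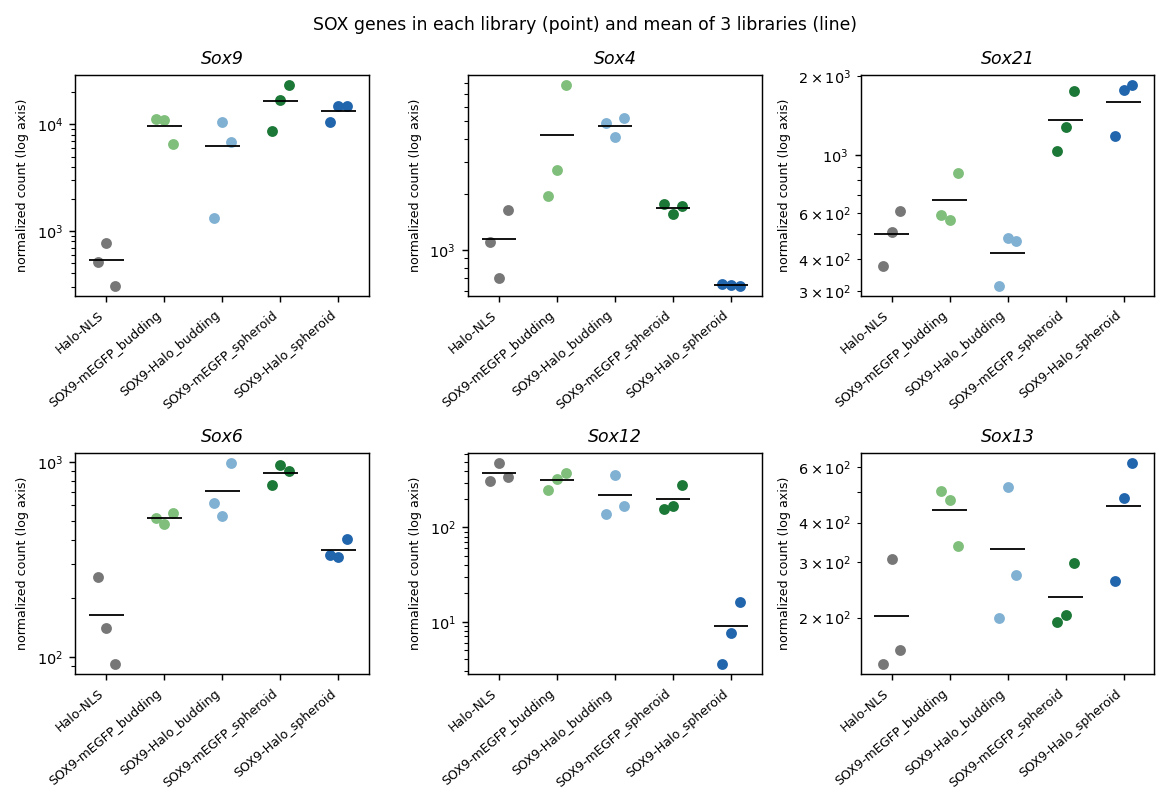
Normalized counts (log axis) of the 6 SOX genes with a mean of at least 100, by condition on the horizontal axis, with 1 point per library and a line at the mean of 3 libraries. Sox9 stands above Halo-NLS in all 12 SOX9 libraries, Sox12 is at 16.2 or less in the 3 SOX9-Halo_spheroid libraries, and Sox4 is highest in the budding SOX9 lines.

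Sox9, of the SOXE group, is the gene from which the transgene was made. The transgene holds the mouse coding sequence, so reads from it are counted on Sox9 together with those from the chromosome, and the gene count does not separate them. The gene is on chromosome 11 of GRCm39 (chr11:112673009-112678586, plus strand) with 4176 bases of exon, of which 1521 (36.4%) are coding. In the 3 Halo-NLS libraries it had 515, 769 and 305 normalized counts, where no SOX9 transgene was present. SOX9-mEGFP_budding had 11368, 11086 and 6487, and SOX9-Halo_budding had 1336, 10538 and 6838. SOX9-mEGFP_spheroid had 8726, 16922 and 23654, and SOX9-Halo_spheroid had 10522, 14834 and 14812. No SOX9 library overlapped the control, and the lowest of them, SOX9-Halo_budding replicate 1, stood far below the other 11.

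Against Halo-NLS the Sox9 count rose 11.8-fold in SOX9-Halo_budding (log2 3.56 ± 0.61 SE, adjusted p = 0.0026) and 18.2-fold in SOX9-mEGFP_budding (4.19 ± 0.63, 9.5e-04). It rose 25.3-fold in SOX9-Halo_spheroid (4.66 ± 0.64, 2.7e-05) and 31.0-fold in SOX9-mEGFP_spheroid (4.95 ± 0.65, 2.6e-05). The rise in SOX9-Halo_budding was no longer called without Halo-NLS replicate 3 or without SOX9-Halo_budding replicate 3 (highest adjusted p = 0.017). It was 2.95 without SOX9-Halo_budding replicate 2 and 4.04 without replicate 1. Sox9 was not called in the 4 comparisons made among the SOX9 conditions, and in each of them the values overlapped. The spheroids lay 1.10 (95% interval -0.08 to 2.29, SOX9-Halo) and 0.77 (-0.41 to 1.94, SOX9-mEGFP) log2 units from their budding lines. SOX9-Halo differed from SOX9-mEGFP by -0.63 (-1.80 to 0.54) in budding organoids and by -0.30 (-1.47 to 0.87) in spheroids. The 2 lines differed in their change from budding to spheroid by 0.33 ± 0.77 SE (adjusted p = 0.86). Leaving out single libraries gave 0.62 to 1.72 from budding to spheroid in the SOX9-Halo line and -1.24 to -0.15 between both budding lines, neither called.

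BC006965, a long noncoding RNA gene on the opposite strand, shares 542 bases (13.0%) of the Sox9 exons. Counting was without strand, and reads that lie on exons of both genes were counted on neither. It had 9, 6 and 9 counts in Halo-NLS, at most 4 in each budding SOX9 library, 6, 5 and 3 in SOX9-mEGFP_spheroid, and 0 in all 3 SOX9-Halo_spheroid libraries. It was too low to be tested.

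Because the transgene is abundant, the similarity of SOX coding sequences bears on whether its reads could reach another member. Each of the 10 coding sequences holds a run of 27 bases in the HMG box that encodes the same amino acids, found by translation of GENCODE M39 transcripts. It is shown for Sox9 and for the genes the results turn on, with capitals at the bases that differ from Sox9.
Sox9: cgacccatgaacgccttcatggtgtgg
Sox4: cgGcccatgaacgccttTatggtgtgg
Sox21: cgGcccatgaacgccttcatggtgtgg
Sox6: cgaccAatgaaTgcGttcatggtTtgg
Sox12: cgGccGatgaacgcGttcatggtgtgg
Sox13: AgacccatgaaTgccttcatggtgtgg
Over these 27 bases Sox21 differed from Sox9 at 1 base, Sox4 and Sox13 at 2, Sox12 at 3 and Sox6 at 4. The run is coding exon in each gene, at chr11:112673729-112673755 in Sox9, chr13:29136798-29136824 in Sox4, chr14:118472994-118473020 in Sox21, chr7:115088971-115088997 in Sox6, chr2:152239469-152239495 in Sox12 and chr1:133313277-133313303 in Sox13. It lies on the plus strand for Sox9 and on the minus strand for the others. Over the whole coding sequence the longest stretch identical to Sox9 among the other 9 members was 27 bases, in Sox18, and 24, 20 and 19 bases in Sox21, Sox4 and Sox12. Sox10, of the same SOXE group but outside the 10, shared a stretch of 44 bases. Sox18 had at most 3 reads and Sox10 at most 2 in any library. Whether transgene reads were counted on other members was not tested.

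Sox4, of the SOXC group, is a single-exon gene on chromosome 13 (chr13:29132902-29137696, minus strand). Halo-NLS had 1098, 702 and 1639 normalized counts. SOX9-mEGFP_budding had 1969, 2716 and 7890 and SOX9-Halo_budding 4893, 4093 and 5186. SOX9-mEGFP_spheroid had 1772, 1565 and 1725 and SOX9-Halo_spheroid 657, 644 and 638. The gene was thus highest in both budding SOX9 lines, which overlapped each other and not the control, and all 3 SOX9-Halo_spheroid libraries were below every other library.

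Sox4 rose 4.12-fold in SOX9-Halo_budding over Halo-NLS (log2 2.04 ± 0.42 SE, adjusted p = 0.0071). In SOX9-mEGFP_budding it was 3.66-fold higher and missed the threshold (1.87 ± 0.41, adjusted p = 0.012), although DESeq2 called it. From budding to spheroid it fell 7.30-fold in the SOX9-Halo line (-2.87 ± 0.43, 6.7e-05). In the SOX9-mEGFP line the difference was -1.31 ± 0.41 (0.024), and the difference between the lines was -1.56 ± 0.57 (0.094), neither of them called. Against Halo-NLS the spheroids differed by -0.83 ± 0.41 (SOX9-Halo, adjusted p = 0.11) and 0.56 ± 0.40 (SOX9-mEGFP, 0.26). SOX9-Halo_spheroid was 1.38 ± 0.41 log2 units below SOX9-mEGFP_spheroid (adjusted p = 0.022), which was not called, and both budding lines differed by 0.17 ± 0.40 (1.0). With only the 6 spheroid libraries in the edgeR fit Sox4 was called between them (-1.36, adjusted p = 5.2e-05).

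Single libraries weighed on the budding comparisons of Sox4. Its call in SOX9-Halo_budding was lost without Halo-NLS replicate 2 or 3 or without SOX9-Halo_budding replicate 1 or 3 (highest adjusted p = 0.034). In SOX9-mEGFP_budding the difference of Sox4 from Halo-NLS was called without replicate 1 of that line (adjusted p = 0.0041). It was 2.22 without Halo-NLS replicate 3, where it was not called, and 1.03 without replicate 3 of SOX9-mEGFP_budding. The spheroid-to-budding difference of Sox4 in that line was -1.65 and called without replicate 1 (0.0048), and -0.52 and not called without replicate 3 (adjusted p = 0.20). Without replicate 3 the lines differed in their change to spheroids by -2.31 for Sox4, which was called (9.8e-04). That replicate 3 library of SOX9-mEGFP_budding also had the highest levels of Lgr5, Olfm4 and Smoc2, markers of crypt stem cells. Its normalized count of Lgr5 was 2411, where replicates 1 and 2 had 449.5 and 496. Its normalized count of Olfm4 was 15543, where they had 170 and 692. Ascl2, also a stem cell marker, was at 598 normalized counts there, below the 861 of Halo-NLS replicate 3. The part of these markers in the Sox4 value was not tested. In bulk RNA, fewer cells of a type and less RNA per cell cannot be told apart.

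A330102I10Rik, a long noncoding RNA gene on the other strand, shares 907 bases (18.9%) of the Sox4 exon. It was tested on its own remaining reads and fell from budding to spheroid in the SOX9-Halo line with Sox4 (log2 -4.94 ± 0.91 SE, adjusted p = 4.1e-04), from 56.5, 36.0 and 103 normalized counts to 2.37, 1.89 and 1.80. Without strand, reads of both genes cannot be told apart where they overlap. The 250 bases before the Sox4 start are shown because the gene moved in both directions.
Sox4: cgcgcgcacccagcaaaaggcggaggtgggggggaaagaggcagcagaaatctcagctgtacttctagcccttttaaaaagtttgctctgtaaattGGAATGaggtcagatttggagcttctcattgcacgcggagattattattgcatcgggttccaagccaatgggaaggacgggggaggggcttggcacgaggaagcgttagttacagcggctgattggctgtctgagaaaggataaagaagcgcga
They lie at chr13:29137697-29137946 (GRCm39, minus strand), and the capitals mark a match to GGAATG, letters bound by TEAD factors, at position -154 from the start. Each promoter was searched on both strands for AACAAT (SOX), ATCAAAG (TCF/LEF) and GGAATG (TEAD). Of 21770 promoters of protein-coding genes of this length, 9.67% held the first, 2.86% the second and 12.1% the third. Among the 10 members Sox4 and Sox6 held GGAATG, Sox2 held AACAAT and Sox17 held ATCAAAG, each at 1 place, and the other 6 held none of these letters.

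Sox12, the other SOXC gene with a measurable level, is an activator of progenitor cells that overlaps in expression with Sox4. It is a single-exon gene on chromosome 2 (chr2:152235531-152239983, minus strand) and shares no exon base with another gene. Halo-NLS had 314, 484 and 344 normalized counts. SOX9-mEGFP_budding had 252, 323 and 382 and SOX9-Halo_budding 139, 357 and 170. SOX9-mEGFP_spheroid had 157, 168 and 282. SOX9-Halo_spheroid had 3.55, 7.57 and 16.2, from 3, 8 and 18 reads. The SOX9-Halo_spheroid libraries were far below all of the other 12, and replicate 1 was at the 3 reads that a count of 0 allows, equal to 2.70 to 3.55 normalized counts in these libraries.

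In SOX9-Halo_spheroid Sox12 fell 40.1-fold from Halo-NLS (log2 -5.33 ± 0.52 SE, adjusted p = 8.8e-07) and 23.4-fold from SOX9-Halo_budding (-4.55 ± 0.51, 3.8e-06). It was 21.3-fold below SOX9-mEGFP_spheroid (-4.41 ± 0.51, 1.3e-05). Within the SOX9-mEGFP line the spheroids differed from budding organoids by -0.66 ± 0.41 (adjusted p = 0.28). The difference between the lines was itself called at -3.89 ± 0.64 (7.1e-04). Elsewhere Sox12 was not called, with -0.91 ± 0.41 in SOX9-mEGFP_spheroid (adjusted p = 0.078), -0.78 ± 0.41 in SOX9-Halo_budding (0.18) and -0.26 ± 0.41 in SOX9-mEGFP_budding (0.68) against Halo-NLS. Both budding lines differed by -0.52 ± 0.41 (0.98). The 3 SOX9-Halo_spheroid differences and that between the lines stayed called whichever library was left out, but their size moved with single libraries. Without SOX9-Halo_spheroid replicate 3, the library with 18 reads, Sox12 was at -6.06 against Halo-NLS, -5.31 against SOX9-Halo_budding and -5.13 against SOX9-mEGFP_spheroid, and the values nearest to 0 were -4.97, -4.02 (without SOX9-Halo_budding replicate 2) and -4.07.

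The 5 protein-coding genes on each side of Sox12 were looked up. Of the 10, 4 were tested, all on the side of lower coordinates, and none of these was called between SOX9-Halo_spheroid and Halo-NLS, where 28.9% of all genes tested were. Csnk2a1, a subunit of casein kinase 2, differed by 0.51 ± 0.29 SE, Tbc1d20 by -0.46 ± 0.20, Rbck1 by 0.03 ± 0.21 and Trib3 by -0.77 ± 0.44. The nearest genes, Nrsn2 and Zcchc3, were too low to be tested, as were all 5 on the side of higher coordinates.

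**Figure D2:**
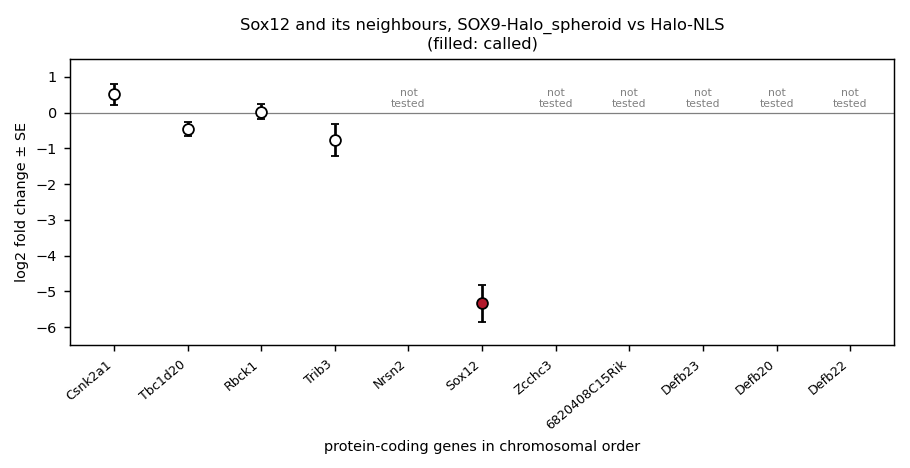
Log2 fold change between SOX9-Halo_spheroid and Halo-NLS (vertical axis, bars are SE) for Sox12 and the 5 protein-coding genes on each side, in chromosomal order. Sox12 is at -5.33 and the 4 neighbours that were tested, all on one side, lie between -0.77 and 0.51.

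The 250 bases before the Sox12 start, at chr2:152239984-152240233 (minus strand), are shown because this gene had the largest change among the members other than Sox9.
Sox12: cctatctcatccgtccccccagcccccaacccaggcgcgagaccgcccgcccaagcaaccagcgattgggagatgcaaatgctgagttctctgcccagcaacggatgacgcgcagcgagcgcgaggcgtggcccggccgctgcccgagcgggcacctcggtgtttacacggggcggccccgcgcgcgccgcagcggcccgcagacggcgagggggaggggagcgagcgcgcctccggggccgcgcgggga
They were rich in G and C (74.8%, where the median promoter had 53.2%) and held 36 CG pairs, where the median was 8. None of the letters searched for was present, so the run has no capitals. The third SOXC gene, Sox11, had at most 25 reads in a library and was not tested.

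Of the SOXB genes Sox21 is a repressor known from neural progenitors and the foregut. It is a single-exon gene on chromosome 14 (chr14:118470644-118474442, minus strand). Halo-NLS had 376, 507 and 608 normalized counts. SOX9-mEGFP_budding had 590, 562 and 856 and SOX9-Halo_budding 315, 483 and 468. SOX9-mEGFP_spheroid had 1037, 1281 and 1755 and SOX9-Halo_spheroid 1179, 1769 and 1861. All 6 spheroid libraries were above all 9 others, and the spheroids overlapped each other, as did the budding lines with the control.

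Sox21 rose 3.22-fold in SOX9-Halo_spheroid (log2 1.69 ± 0.29 SE, adjusted p = 1.9e-04) and 2.73-fold in SOX9-mEGFP_spheroid (1.45 ± 0.28, 8.0e-04) over Halo-NLS. From budding to spheroid it rose 3.80-fold in the SOX9-Halo line (1.93 ± 0.29, 6.5e-05). In the SOX9-mEGFP line the difference was 1.02 ± 0.28 with an adjusted p of 0.013, and was not called. The difference between the lines, 0.91 ± 0.39, did not pass either (adjusted p = 0.17). The spheroids differed by 0.24 (95% interval -0.35 to 0.83). The budding lines differed from Halo-NLS by -0.24 ± 0.28 (SOX9-Halo, adjusted p = 0.55) and 0.43 ± 0.28 (SOX9-mEGFP, 0.28), and from each other by -0.67 ± 0.28 (0.49).

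The antisense gene Sox21os1 shares 768 bases (20.2%) of the Sox21 exon and was called in the same 3 comparisons, by 1.75 ± 0.33, 1.26 ± 0.33 and 1.56 ± 0.32 log2 units (adjusted p = 5.3e-04, 0.0062 and 0.0011). Its levels were between 12.7 and 42.8 normalized counts in the control and budding libraries and between 47.1 and 78.2 in the spheroids. Of 6 neighbours of Sox21 tested between SOX9-Halo_spheroid and Halo-NLS 2 were called, where 28.9% of all genes were. Abcc4, a transporter of organic anions, rose (3.16 ± 0.40, adjusted p = 1.1e-05) and Dct, an enzyme of melanin synthesis, fell (-7.84 ± 1.11, 7.4e-05). Gpr180, the nearest tested gene, differed by 0.04 ± 0.19, and Tgds (0.22 ± 0.29), Dzip1 (1.31 ± 0.54) and Dnajc3 (0.45 ± 0.29) were not called either.

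Sox2, the SOXB factor of pluripotent cells and of the foregut, had 0 reads in all 15 libraries, where up to 3 reads in a library, or 3.92 normalized counts, remain possible. Of its exon bases 59.9% are shared with Gm64654, a noncoding gene on the other strand that also had 0 reads. Sox14, a SOXB gene outside the 10, had 6, 21 and 7 reads in SOX9-Halo_budding and at most 1 in each of the other 12 libraries. It did not pass the filter on low counts. Sox3 had no read in any library.

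SOXD proteins form dimers through a coiled coil, and in cartilage Sox5 and Sox6 are known as partners of SOX9. Sox6, on chromosome 7 (chr7:115070106-115638860, minus strand), had 257, 141 and 91.8 normalized counts in Halo-NLS. SOX9-mEGFP_budding had 515, 479 and 551 and SOX9-Halo_budding 619, 529 and 991. SOX9-mEGFP_spheroid had 761, 971 and 902 and SOX9-Halo_spheroid 334, 326 and 404. Every SOX9 library was above every control library, and the 3 SOX9-Halo_spheroid libraries were the lowest of the 12 SOX9 libraries.

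Sox6 rose 4.36-fold in SOX9-Halo_budding (log2 2.13 ± 0.33 SE, adjusted p = 0.0015), 3.15-fold in SOX9-mEGFP_budding (1.66 ± 0.33, 0.0066) and 5.37-fold in SOX9-mEGFP_spheroid (2.43 ± 0.34, 4.2e-05). In SOX9-Halo_spheroid it was 2.17-fold higher (1.12 ± 0.32) with an adjusted p just above the threshold of 0.01, and without Halo-NLS replicate 1 it was called (1.61, 4.4e-04), as it was by DESeq2 with all libraries. SOX9-Halo_spheroid was 2.47-fold below SOX9-mEGFP_spheroid (-1.31 ± 0.32, 0.0075), a call that was lost whichever of the 6 libraries was left out (adjusted p = 0.013 to 0.040). From budding to spheroid Sox6 differed by -1.01 ± 0.32 in the SOX9-Halo line (adjusted p = 0.020), and with the replicate number as a block within that line it fell by 1.00 and was called (0.0076). In the SOX9-mEGFP line it differed by 0.77 ± 0.32 (0.089). The difference between the lines was -1.78 ± 0.45 (0.016) and not called. With only the compared libraries in the edgeR fit it was called (-1.74, adjusted p = 0.0021). Both budding lines differed by 0.47 ± 0.32 (0.91). The call in SOX9-Halo_budding was lost without Halo-NLS replicate 2 or SOX9-Halo_budding replicate 3 (highest adjusted p = 0.011). That in SOX9-mEGFP_budding was lost without Halo-NLS replicate 2 or 3 or any library of that line (highest adjusted p = 0.036).

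Sox13, on chromosome 1 (chr1:133310039-133352222, minus strand), had 142, 308 and 158 normalized counts in Halo-NLS. SOX9-mEGFP_budding had 502, 471 and 338 and SOX9-Halo_budding 199, 518 and 273. SOX9-mEGFP_spheroid had 194, 204 and 297 and SOX9-Halo_spheroid 261, 480 and 618. The values spread widely within conditions, and Sox13 was called in none of the 9 comparisons. Against Halo-NLS it differed by 0.70 ± 0.41 (SOX9-Halo_budding, adjusted p = 0.22), 1.10 ± 0.41 (SOX9-mEGFP_budding, 0.075), 1.16 ± 0.41 (SOX9-Halo_spheroid, 0.029) and 0.19 ± 0.41 (SOX9-mEGFP_spheroid, 0.71). From budding to spheroid it differed by 0.46 ± 0.40 in the SOX9-Halo line (0.40) and by -0.91 ± 0.40 in the SOX9-mEGFP line (0.11), and the lines differed by 1.37 ± 0.57 (0.15). SOX9-Halo differed from SOX9-mEGFP by 0.97 ± 0.41 in spheroids (0.10) and by -0.41 ± 0.40 in budding organoids (1.0). Without Halo-NLS replicate 2 the SOX9-Halo_spheroid difference was 1.60 and called (adjusted p = 0.0091).

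Sox5, the third SOXD gene, was near the limit of detection. Its reads in Halo-NLS were 2, 0 and 10, in SOX9-mEGFP_budding 8, 5 and 37, and in SOX9-Halo_budding 6, 7 and 10. The spheroids had 5, 3 and 5 (SOX9-mEGFP) and 2, 3 and 4 (SOX9-Halo). It passed the filter, but its mean of 6.75 normalized counts was below the 10 that a call needs, so it could not be called. Its budding and spheroid libraries did not overlap in either line, as for 52.8% (SOX9-Halo) and 46% (SOX9-mEGFP) of all genes.

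The SOXF genes Sox17 and Sox18 are known from definitive endoderm and from blood and lymph vessels. Sox17 had 3 reads in all 15 libraries together and at most 1 in any, and Sox18 had 9 reads in all and at most 3 in any. Of 12 endothelial markers 4 were tested. Among the defining markers Cldn5 was at 0 in Halo-NLS, Cdh5 and Kdr in SOX9-mEGFP_budding, Cldn5 and Emcn in SOX9-Halo_budding, Cdh5 and Cldn5 in SOX9-mEGFP_spheroid, and Tek, Cldn5, Emcn and Kdr in SOX9-Halo_spheroid. The summed level of the list was 495 ± 170 normalized counts (SD, n = 3) in Halo-NLS, 457 ± 126 in SOX9-mEGFP_budding, 293 ± 54.5 in SOX9-Halo_budding, 2191 ± 186 in SOX9-mEGFP_spheroid and 1914 ± 258 in SOX9-Halo_spheroid. The most abundant gene was Esam, an adhesion molecule, in all conditions but SOX9-Halo_budding, where it was Egfl7. Esam was the single marker called in either spheroid (log2 2.86 ± 0.36 SE and 3.08 ± 0.36 in SOX9-Halo and SOX9-mEGFP against Halo-NLS), where 28.9% and 27.5% of all genes were called.

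**Figure D3:**
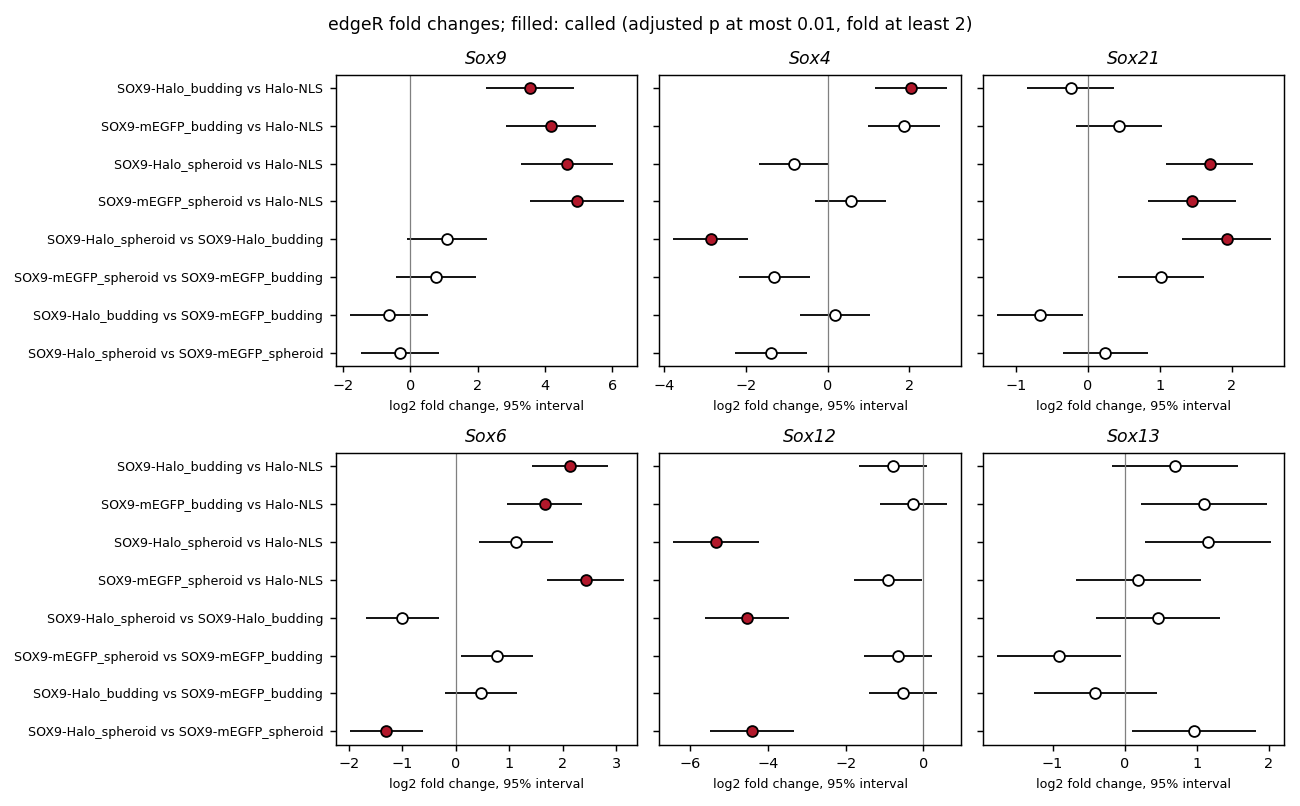
Log2 fold changes (horizontal axis, bars are 95% intervals) of the 6 SOX genes in 8 comparisons (vertical axis), filled where called. Sox9 is filled in all 4 comparisons with Halo-NLS and in none among the SOX9 conditions, Sox12 in the 3 that involve SOX9-Halo_spheroid, and Sox13 in none.

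Per exon length, the make-up of the SOX transcripts differed between conditions. In Halo-NLS Sox4 had the highest mean share with 37.7% ± 13.6 (SD, n = 3) of the summed TPM of the 10 genes, beside Sox21 with 20.5% ± 2.85, Sox9 with 20.4% ± 9.17, Sox12 with 13.6% ± 3.04 and Sox13 with 6.10% ± 2.64. The shares of Sox21 and Sox9 lay within each other's spread, and those of Sox4 (22.9% to 49.5%) and Sox9 (10.6% to 28.8%) overlapped. Sox9, with transgene reads, made up 65.3% ± 19.4 in SOX9-mEGFP_budding, 47.8% ± 24.2 in SOX9-Halo_budding, 80.6% ± 6.39 in SOX9-mEGFP_spheroid and 82.8% ± 0.569 in SOX9-Halo_spheroid. Without Sox9, the summed TPM of the other 9 was 43.8 ± 6.38 in Halo-NLS, 141 ± 95.1 in SOX9-mEGFP_budding, 146 ± 25.0 in SOX9-Halo_budding, 103 ± 14.7 in SOX9-mEGFP_spheroid and 83.3 ± 21.3 in SOX9-Halo_spheroid. Without its replicate 3 the sum in SOX9-mEGFP_budding was 86.1. All 12 SOX9 libraries were above the highest control library (50.8), and the 4 SOX9 conditions overlapped in part.

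Among these 9 the order of Sox4 and Sox21 differed between conditions. In the budding lines Sox4, at 101 ± 86.6 and 115 ± 22.6 TPM (SOX9-mEGFP and SOX9-Halo), was followed by Sox21 at 19.6 ± 6.73 and 13.0 ± 3.61. Without SOX9-mEGFP_budding replicate 3 the mean of Sox4 in that line was 50.8 TPM. In SOX9-mEGFP_spheroid Sox21 (43.1 ± 11.4 TPM) and Sox4 (42.4 ± 2.10) were level within their spread. In SOX9-Halo_spheroid Sox21 (52.8 ± 15.1 TPM) stood above Sox4 (16.7 ± 0.846) and Sox13 (10.9 ± 4.87), and Sox12 was at 0.260 ± 0.196 (0.153 without replicate 3).

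**Figure D4:**
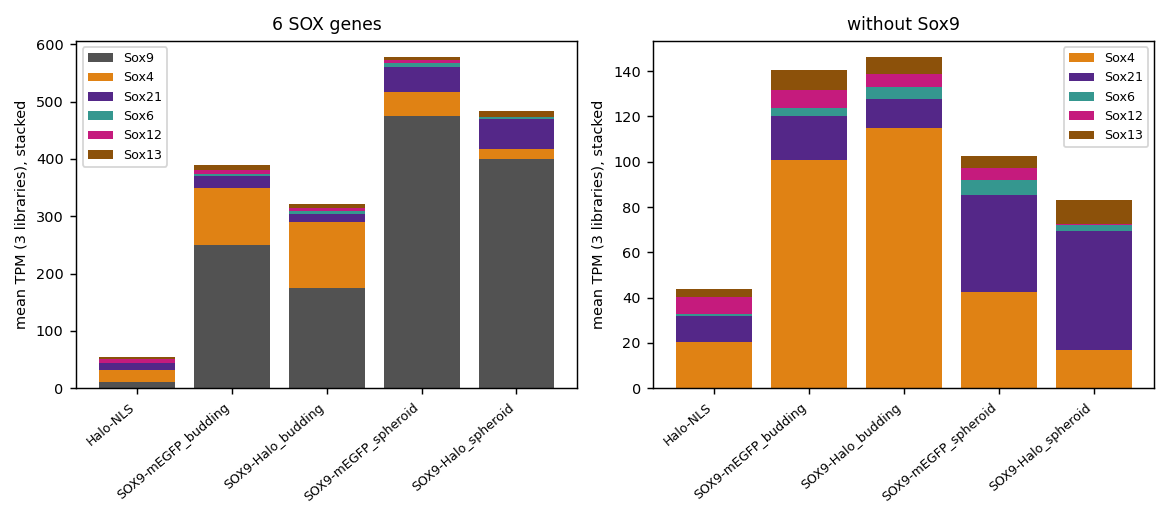
Mean TPM over 3 libraries (vertical axis, stacked bars from 0) of the 6 SOX genes in each condition, with Sox9 on the left and without it on the right. Sox9 fills most of the bar in both spheroids (80.6% and 82.8% of the summed TPM), and on the right Sox4 makes up most of the budding bars and Sox21 most of the SOX9-Halo_spheroid bar.

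The genes whose pattern over the 15 libraries lay nearest to each member were found by the root mean square difference of centred log2 CPM (reads scaled to library size), among 11054 genes with a mean of at least 100. The libraries of a condition share their line, and how far nearness reflects the 5 conditions was not tested. Sox12 was nearest to Eif4e3, a cap-binding protein (0.47), Pdlim1 (0.52) and Gm7694 (0.53), where its own SD was 2.05. Sox6 was nearest to Ankhd1 (0.23), the Wnt co-receptor gene Lrp6 (0.24) and Elk4 (0.27), with an SD of 0.98. Sox21 was nearest to the ceramide synthase gene Cers5 (0.25), Nbeal2 (0.26) and Aaas (0.28), with an SD of 0.85. Sox4 was nearest to Pik3r1, a regulatory subunit of PI3-kinase (0.47), Lrrc31 (0.47) and B130034C11Rik (0.48), with an SD of 1.18. Sox13 was nearest to Fhod1 (0.31), Zcchc14 (0.34) and Cachd1 (0.37), with an SD of 0.67. For Sox9, with a wide spread of its own, Car12, a carbonic anhydrase, was at 0.78, Trim44 at 0.87 and Sorbs2 at 0.90, with an SD of 2.01.

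Of 12 listed cofactors and regulators of SOX9 10 were tested. None was called in SOX9-Halo_budding or SOX9-mEGFP_budding against Halo-NLS, where 3.75% and 2.76% of all genes were, and 1 and 2 were called in SOX9-Halo_spheroid and SOX9-mEGFP_spheroid, where 28.9% and 27.5% were. Of these Fbxw7, which marks SOX9 for degradation, was called higher in both spheroids, and Rest in SOX9-mEGFP_spheroid. The list's median log2 difference from Halo-NLS was between 0.42 and 0.61 in the 4 SOX9 conditions, where the median of all genes lay between -0.01 and 0.03. Its most abundant gene, Ctnnb1 (β-catenin), was at 14335 normalized counts in Halo-NLS and 17774 in SOX9-Halo_spheroid (log2 0.31 ± 0.18 SE). Myc differed by 0.83 ± 0.36 there. Of the 4 TCF/LEF factors, HMG-box proteins that carry Wnt signals, 3 were tested and none was called against Halo-NLS, with differences of 1.07 ± 0.39 for Tcf7, -1.05 ± 0.52 for Tcf7l2 and -3.22 ± 0.90 for the scarce Tcf7l1 in SOX9-Halo_spheroid. From budding to spheroid in the SOX9-Halo line Tcf7 rose by 1.88 ± 0.40.

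Known target genes went both ways. Of 12 cartilage genes bound by SOX9 4 were tested, and the collagen genes Col11a2 and Col9a3 rose in both spheroids over Halo-NLS (13.6% and 15.3% of all genes were higher), by 1.72 ± 0.37 and 4.41 ± 0.70 log2 units in SOX9-Halo_spheroid. The collagen gene Col9a1 differed there by -3.34 ± 0.98 (adjusted p = 0.011, not called), was called lower than in SOX9-Halo_budding (-4.28 ± 0.89) and than in SOX9-mEGFP_spheroid (-4.29 ± 0.89), and the median of the 4 genes was -0.01 over Halo-NLS. The list remained scarce, with a summed level of 239 ± 91.4 normalized counts (SD, n = 3) in SOX9-Halo_spheroid, and Comp differed by -1.74 ± 0.68 there and fell in SOX9-mEGFP_spheroid (-3.78 ± 0.82). Of 6 listed intestinal targets, all tested, Ceacam1, an adhesion molecule, rose in all 4 SOX9 conditions, by 1.94 ± 0.27 in SOX9-Halo_budding and 3.91 ± 0.30 in SOX9-mEGFP_spheroid. Igfbp4, a binding protein of insulin-like growth factors, fell in both budding lines and in SOX9-mEGFP_spheroid, from a mean of 2191 normalized counts in Halo-NLS to 105 in SOX9-Halo_budding, 62.0 in SOX9-mEGFP_budding and 87.4 in SOX9-mEGFP_spheroid. In SOX9-Halo_spheroid it was at 3045 and not called, and its call in SOX9-Halo_budding was lost with only the compared libraries in the fit. The identity factor Cdx2 fell in both spheroids, with -7.35 ± 0.31 in SOX9-Halo and -2.51 ± 0.25 in SOX9-mEGFP, and 3 of the 6 were lower in each, where 15.3% and 12.1% of all genes tested were. The mucin gene Muc2 fell in SOX9-Halo_spheroid (-10.39 ± 1.76).

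POU and PAX proteins bind beside SOX proteins at shared sites. Of 11 listed 4 were tested, and Pax6 and Pou2f3 fell in both spheroids, with -1.67 ± 0.37 log2 units for Pou2f3 in SOX9-Halo, where 15.3% and 12.1% of all genes were lower in SOX9-Halo_spheroid and SOX9-mEGFP_spheroid. Pou2f1 differed by 1.40 ± 0.56 in SOX9-Halo_budding and Pou6f1 by 0.44 ± 0.40, neither called. Of 19 foregut and endoderm factors 14 were tested. Against Halo-NLS none was called in either budding line (3.75% and 2.76% of all genes in SOX9-Halo and SOX9-mEGFP). In SOX9-Halo_spheroid 7 fell and 2 rose (Cxcr4 and Foxa1), where 15.3% of all genes were lower and 13.6% higher. In SOX9-mEGFP_spheroid 5 fell and 2 rose (Cxcr4 and Pdx1), where 12.1% were lower and 15.3% higher. In SOX9-Halo_spheroid Hnf4a (-4.61 ± 0.28) and Gata6 (-3.46 ± 0.31) fell, and Gata4 differed by -0.73 ± 0.25. The 5 genes at 0 in SOX9-mEGFP_spheroid included Hhex and Isl1.

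Markers of intestinal cell types changed as well, and their part in the SOX levels was not tested. The shares of all genes called, against which their counts stand, are those given for the same comparisons above. All 10 enteroendocrine markers fell in both spheroids, with a summed level of 23131 ± 10106 normalized counts (SD, n = 3) in Halo-NLS, 110 ± 42.2 in SOX9-mEGFP_spheroid and 13.1 ± 3.18 in SOX9-Halo_spheroid. The most abundant, Chgb, and Chga, both granins of hormone granules, differed by -10.99 ± 0.92 and -11.37 ± 0.99 log2 units in SOX9-Halo_spheroid, and Insm1 by -10.38 ± 0.72. Of 8 enterocyte markers 8 fell in SOX9-Halo_spheroid and 7 in SOX9-mEGFP_spheroid, among them Fabp1, a fatty acid binding protein (-11.14 ± 1.05 and -6.19 ± 0.85). Vil1 was called in SOX9-Halo_spheroid alone (-3.58 ± 0.28). Of 7 Paneth markers 6 were tested, all 6 fell in SOX9-Halo_spheroid, and 5 fell in SOX9-mEGFP_spheroid, where the protease gene Mmp7 rose (6.49 ± 0.30). In SOX9-Halo_spheroid Lyz1 differed by -10.42 ± 0.54 and Itln1 by -7.41 ± 0.38. The summed level of the Paneth list was 55915 ± 8033 normalized counts in Halo-NLS, led by Lyz1, 42485 ± 4306 in SOX9-mEGFP_spheroid, led by Mmp7, and 143 ± 48.1 in SOX9-Halo_spheroid. In the budding lines none of the enteroendocrine and enterocyte markers was called, and of the Paneth markers 3 fell in SOX9-Halo_budding (none with only the compared libraries in the fit) and Mmp7 rose in SOX9-mEGFP_budding.

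Of 6 stem cell markers Rnf43 rose (1.14 ± 0.26) and Olfm4 and Smoc2 fell (-4.15 ± 0.77 for Smoc2) in SOX9-Halo_spheroid, and Lgr5 rose and Smoc2 fell in SOX9-mEGFP_spheroid. Axin2 differed by 1.06 ± 0.53 in the former. No stem marker was called in a budding line. The summed level of the list was 12725 ± 5690 normalized counts in Halo-NLS, 18762 ± 16273 and 16305 ± 4646 in SOX9-mEGFP_budding and SOX9-Halo_budding, and 6905 ± 1700 and 9599 ± 2117 in the corresponding spheroids. The sums of single SOX9-mEGFP_budding libraries ran from 8001 to 37483. Of 10 tuft cell markers 7 were tested, and in both spheroids Pou2f3 fell and Ptgs1, which is not specific to tuft cells, rose (9.49 ± 0.36 in SOX9-Halo_spheroid). Trpm5 differed by -1.41 ± 0.47 there and Avil by -1.10 ± 0.62. Among 6 epithelial markers Krt18 rose in both spheroids (1.58 ± 0.23 and 1.93 ± 0.23). In SOX9-Halo_spheroid 3 fell, Epcam (-1.11 ± 0.16) and, by the larger values given above, Cdx2 and Vil1. Cdx2 fell in SOX9-mEGFP_spheroid too, and Krt8 was not called against Halo-NLS.

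Markers of other cell types were followed too, and their part in the SOX levels was not tested. Against Halo-NLS, 13.6% of all genes tested were called higher and 15.3% lower in SOX9-Halo_spheroid, and 15.3% higher and 12.1% lower in SOX9-mEGFP_spheroid. In SOX9-Halo_budding 2.49% were higher and 1.26% lower. Of 9 mesenchymal markers 3 were tested. Their summed level went from 301 ± 23.1 normalized counts (SD, n = 3) in Halo-NLS to 50.7 ± 16.7 in SOX9-Halo_spheroid, Vim was the most abundant in Halo-NLS, and Vim and Pdgfrb fell in both spheroids, with -3.53 ± 0.66 and -5.02 ± 0.61 in SOX9-Halo. Col1a1 was at most at a mean of 21.2. Of 8 immune markers 3 were tested, with Cd68 higher in both spheroids (2.59 ± 0.39 and 2.57 ± 0.39), Itgam lower in SOX9-Halo_spheroid (-6.48 ± 0.75) and Csf1r higher in SOX9-mEGFP_spheroid (2.33 ± 0.57), while Ptprc, which marks all leukocytes, was not tested and was at 0 in SOX9-Halo_spheroid. Of 8 neural and glial markers 4 were tested. Their summed level was 1832 ± 610 normalized counts in Halo-NLS, 1326 ± 42.1 in SOX9-mEGFP_budding, 1484 ± 224 in SOX9-Halo_budding, 860 ± 433 in SOX9-mEGFP_spheroid and 121 ± 10.3 in SOX9-Halo_spheroid. It was led by Ret in Halo-NLS and SOX9-mEGFP_budding, by S100b in SOX9-Halo_budding and SOX9-mEGFP_spheroid and by Tubb3 in SOX9-Halo_spheroid, with Sox10, a defining glial gene, at no more than 2 reads in any library. S100b rose in SOX9-Halo_budding and SOX9-mEGFP_spheroid (4.34 ± 0.65 and 4.33 ± 0.65). Ret fell in all SOX9 conditions but SOX9-mEGFP_budding (in SOX9-Halo_budding not with only the compared libraries in the fit), with -7.54 ± 0.45 in SOX9-Halo_spheroid. Tubb3 fell in SOX9-mEGFP_spheroid (-3.25 ± 0.54).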

How the data were processed

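Whole-number counts of reads per gene were deposited by the authors for each library and were used as they are. They had trimmed the reads with cutadapt 4.5, aligned them to the mouse genome mm39 (GRCm39) with STAR, kept unique alignments and counted them with HTSeq 2.0.2 in union mode without strand. Normalized counts and tables of the authors' comparisons (fold changes and p-values from DESeq2 2.11.40.8) were not used. Groups came from the sample labels.

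The members and all gene lists were chosen with earlier results of these data known. The members were the 10 genes of the rule. Fold changes are given for members with a mean of at least 100 normalized counts, other lists by their counts and 3 most abundant tested genes.

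In edgeR 4.0.16 (R 4.3.3), genes were filtered with filterByExpr by condition, which left 17560 of 78298, counts were scaled by TMM, and 1 quasi-likelihood fit over all 15 libraries estimated a level for each condition. The SE was obtained from the log2 fold change and its F statistic. Adjusted p-values (Benjamini-Hochberg) are over all genes tested. Reads on several genes made up 9.65% to 13.6% of reads and are not counted. TPM was computed with the merged exon lengths of GENCODE M39, from which positions and sequences were taken. Replicate numbers were taken as pairs where all 3 same-numbered libraries of a pair of conditions deviated together with r over 0.1, which held only for SOX9-Halo_budding with SOX9-Halo_spheroid (r = 0.403, 0.234 and 0.344 over 11054 genes). Single numbers correlated more in other pairs of conditions, up to 0.817 for replicate 2 of Halo-NLS and SOX9-Halo_budding. DESeq2 1.42.0, library sizes alone, no filter, the compared libraries alone, replicate blocks, other lengths and leaving out each library were alternatives. Values of some single genes of the lists are not reported here.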

Additional observations from a re-analysis of the deposited data

Results flagged for a closer look

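Sox12 changed differently in the 2 lines on the way from budding to spheroid organoids. It was -4.55 ± 0.51 SE log2 units in the SOX9-Halo line and -0.66 ± 0.41 in the SOX9-mEGFP line, and the difference, tested as an interaction term in the edgeR model of all 15 libraries, was -3.89 ± 0.64 (adjusted p = 7.1e-04 over 17560 genes). All 3 SOX9-Halo_spheroid libraries (3.55, 7.57 and 16.2 normalized counts) were below all 3 of SOX9-mEGFP_spheroid (157, 168 and 282), and the adjusted p was between 4.6e-04 and 0.0038 when single libraries were left out. Each line was followed once, and the spheroids of the 2 lines were taken at different times in culture. Line, tag, any H2B transgene and time in culture therefore cannot be told apart here.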

How the results depend on the processing

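Against the main results, the number of genes called moved as follows. For SOX9-Halo_budding against Halo-NLS (659 genes) it was 1177 with library sizes alone, 2357 without a filter, 1627 with DESeq2 and 5 with only the compared libraries. For SOX9-mEGFP_budding (484) it was 728, 1991, 1225 and 103, and for SOX9-Halo_budding against SOX9-mEGFP_budding (80) it was 280 without a filter, 200 with DESeq2 and 19 with only the compared libraries. Members called moved to 0 in SOX9-Halo_budding and 1 in SOX9-mEGFP_budding against Halo-NLS with only the compared libraries, to 5 in SOX9-Halo_spheroid against Halo-NLS with library sizes alone or no filter, to 1 between the spheroids with library sizes alone and 3 without a filter, with only the compared libraries or with the block, to 2 without a filter and 1 with DESeq2 from SOX9-mEGFP_budding to its spheroid, and for the difference between the lines to 3 without a filter and 2 with DESeq2 or only the compared libraries. The balance of directions moved too. In SOX9-Halo_spheroid against Halo-NLS 2392 genes were higher and 2682 lower. With library sizes alone these were 3102 and 2229, and without Halo-NLS replicate 1 they were 3146 and 2720. In SOX9-Halo_budding 438 higher and 221 lower became 1068 and 109 with library sizes alone. Sox21 in SOX9-Halo_budding against Halo-NLS reversed to 0.07 with library sizes alone. The cause was not tested.

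Leaving out single libraries gave ranges of genes called of 201 to 2370 (SOX9-Halo_budding), 216 to 2184 (SOX9-mEGFP_budding), 4375 to 5866 (SOX9-Halo_spheroid) and 3792 to 5810 (SOX9-mEGFP_spheroid) against Halo-NLS, 3832 to 4264 and 2238 to 2832 from budding to spheroid (SOX9-Halo and SOX9-mEGFP), 46 to 101 between budding lines, 1704 to 2120 between spheroids and 917 to 1255 for the difference between the lines. The lowest budding counts were without Halo-NLS replicate 2 and the highest without replicate 1. Members called ranged from 0 to 3, 1 to 2, 3 to 4 and 3 to 3 against Halo-NLS in the same order, 3 to 3 and 0 to 1 from budding to spheroid, 0 to 0 between budding lines, 1 to 1 between spheroids and 1 to 2 for the difference. Directions that reversed were those of Sox13 in SOX9-mEGFP_spheroid against Halo-NLS (-0.04 to 0.63), Sox4 between budding lines (-0.17 to 0.99), Sox9 between spheroids (-0.62 to 0.05) and Sox9 for the difference between the lines (-0.15 to 0.95), none of them called with all libraries.

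With the replicate number as a block over all libraries, members called from SOX9-mEGFP_budding to its spheroid moved to 1 (Sox21), and Sox4 was called in SOX9-mEGFP_budding against Halo-NLS (1.79, adjusted p = 0.0064) and between spheroids (-1.38). Outside the SOX9-Halo line the numbers are shared names only. The block within the SOX9-Halo line, chosen after seeing the data, changed the call of Sox6 alone among the members.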
